A study of Mus musculus with 6 samples.

Results

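A set of 43 genes on mouse chromosome 8 with broad cellular roles was followed through the *Wnt6* anchor deletion in mouse embryonic stem cells (mESCs). They were picked by name, out of 55385 genes in the count table, as genes of chromosome 8 that act in most cells, many of them subunits of protein complexes, together with *Zmat4*, a zinc finger gene. The choice was made with the rise of chromosome 8 genes in the homozygous deletion in view. For this reason every value of these 43 genes in homozygous against wild-type cells is a description, without a test. All 43 reached 10 counts in 2 or more libraries and were tested, as were 847 other genes of chromosome 8 and 16951 genes in all.

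Genes of this kind keep a cell running: they license and copy DNA, package it, transcribe and process RNA, charge transfer RNAs, fold and degrade proteins and move cargo between compartments. Many of their products work only in complexes of fixed composition, and most of the partner genes listed below lie on other chromosomes. When a chromosome is gained, the RNA of its genes commonly rises roughly with the number of copies, although single genes can follow less or more than that.

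RNA was sequenced from wild-type mESCs of the G4 line, which derives from a cross of the 129/Sv and C57BL/6 strains, and from lines in which CRISPR-Cas9 had removed the *Wnt6* loop anchor on chromosome 1 from either 1 allele (heterozygous deletion) or both alleles (homozygous deletion). All cells were grown with LIF on a layer of CD1 feeder cells, and polyadenylated RNA was sequenced. The labels give 2 libraries per genotype and the methods state biological triplicates. Neither source says whether the libraries of a genotype came from 1 clone or from several. The p-values therefore measure only the spread between these libraries, which may be less than that between clones. A clone and its genotype cannot be told apart.

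The 6 libraries hold between 23813912 and 28964706 counts. The share of counts from chromosome 8 was 4.91% and 4.87% in wild-type libraries, 4.52% and 4.47% with the heterozygous deletion and 6.40% in both libraries of the homozygous deletion. The mESC markers, 10 genes such as *Pou5f1*, sum to 3267 to 3329 CPM (counts relative to a library total that is adjusted for its composition) in wild-type libraries, 2968 to 3020 with the heterozygous and 3272 to 3462 with the homozygous deletion. The 16 fibroblast markers listed for the feeder cells sum to 3415 to 3491, 2694 to 2722 and 2070 to 2086 CPM in the same order, and none of them was at 0 throughout. Among the markers of other lineages, 4 of 4 tested neural and ectoderm genes were higher in the homozygous deletion, 2 of them (*Sox1* and *Tubb3*) on chromosome 8, and 1 of 4 endoderm and 1 of 4 mesoderm genes were lower. Of all tested genes 10.9% were higher and 10.5% lower in that deletion. The neural marker *Nes* was higher in the heterozygous deletion as well, with a log2 fold change of 0.19 against 0.16 in the homozygous. Of the 15 fibroblast markers tested, 15 were lower in the homozygous and 10 in the heterozygous deletion at an edgeR adjusted p below 0.05. In the heterozygous deletion 2.23% of all tested genes were higher and 2.91% lower. In bulk RNA, fewer cells of a type and less RNA per cell cannot be told apart, and the part of the feeder cells in the values below was not tested.

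In homozygous cells the members lay 1.39-fold above wild-type cells at the median, a log2 fold change of 0.48, and 42 of 43 were above 0. The values of 38 of the 43 fell between 0.3 and 0.7. As a fixed reference the log2 of 3/2, 0.58, was used, the value that 3 copies against 2 would give if RNA followed copy number. DNA copy number is not among the measurements here. The median standard error of a member was 0.046, and the SD across members was 0.19. Much of that SD came from *Zmat4*, the highest, and *Irf2*, the lowest. Without both it was 0.10.

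**Figure D1:**
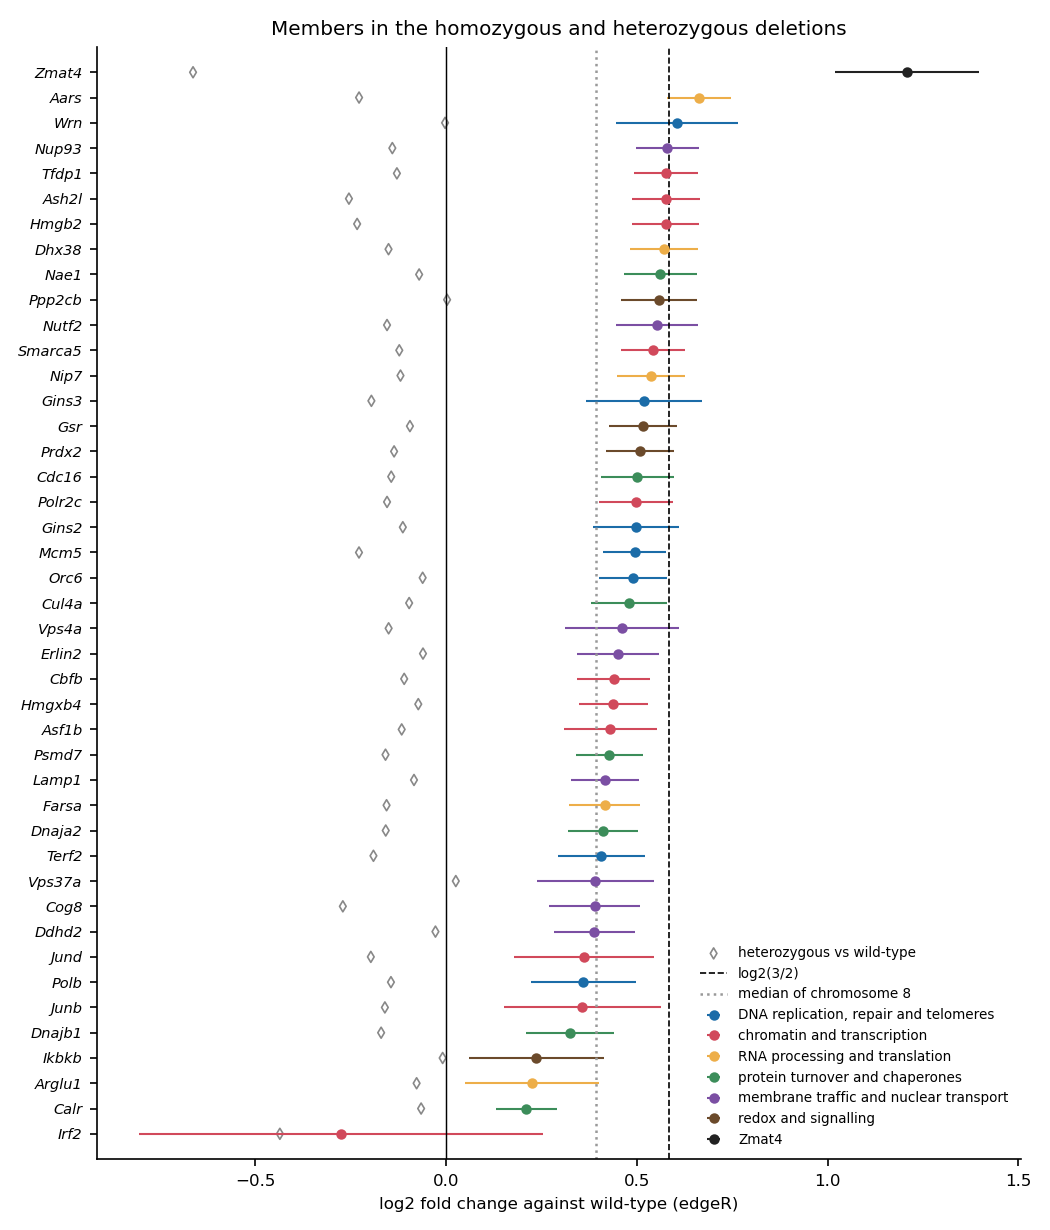
Fitted log2 fold changes of the 43 members against wild-type cells, with filled circles and 95% intervals for the homozygous deletion, colored by role, and open diamonds for the heterozygous deletion. The dashed line marks log2(3/2) and the dotted line the median of all tested genes of chromosome 8, 0.39; from *Dnajb1* at 0.33 up to *Aars* at 0.66 the circles form a narrow band, with *Zmat4* above it and *Ikbkb*, *Arglu1*, *Calr* and *Irf2* below it.

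Set against that reference gene by gene, the 95% interval of the homozygous value lay below it for 23 members, included it for 19 and lay above it for 1. These intervals are not adjusted for the number of genes. Without the second wild-type library the interval lay below the reference for 15 members, and without the second homozygous library it lay above it for 2. With library totals in place of the composition scaling the median moved to 0.42 and the interval included the reference for 11 members. An edgeR adjusted p below 0.05 for higher RNA, which 10.9% of all tested genes had, was met by 40 of 43 members, and nothing is read from this count, since the members were chosen on that comparison. For lower RNA, which 10.5% of all genes met, the count was 0. Only *Zmat4* also passed a log2 fold change of 1, against 0.271% of all genes.

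Library by library the picture was the same. Relative to the mean of the wild-type libraries, the median member stood at 0.994 and 1.01 in the wild-type, 0.912 and 0.918 in the heterozygous and 1.41 and 1.38 in the homozygous libraries. Both homozygous libraries lay above both wild-type libraries for 40 of 43 members, compared with 28.4% of all tested genes. The exceptions were *Irf2*, *Arglu1* and *Ikbkb*.

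**Figure D2:**
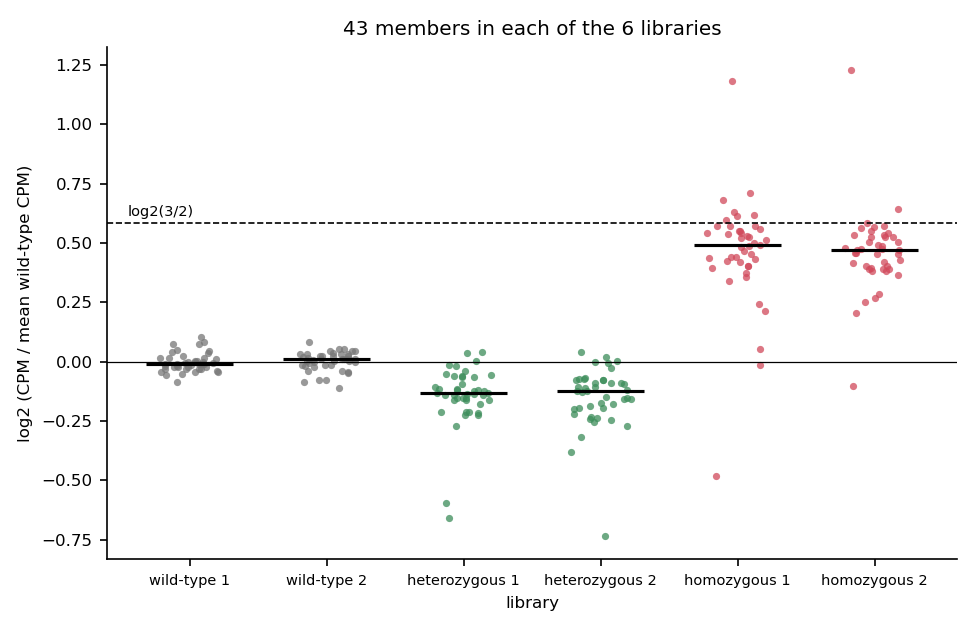
The log2 ratio of each member's CPM to its mean over the wild-type libraries, in each of the 6 libraries, with 1 point per member and a black bar at the median. The heterozygous medians (ratios of 0.912 and 0.918) lie below the wild-type line and the homozygous medians (1.41 and 1.38) lie below the dashed line at log2(3/2).

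The other genes of chromosome 8 were displaced as well. The 847 other tested genes of chromosome 8 had a median of 0.38 and an SD of 0.37. Many of these are expressed at a low level, and among the 499 of them with at least 10 CPM the median was 0.41 and the SD 0.22. Genes of other chromosomes at the same level had a median of 0.01 and an SD of 0.22, and the members' SD of 0.10 without the extremes is that of a list picked with the rise in view. Of the 499 genes, the interval lay below the reference for 312, included it for 174 and lay above it for 13.

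**Figure D3:**
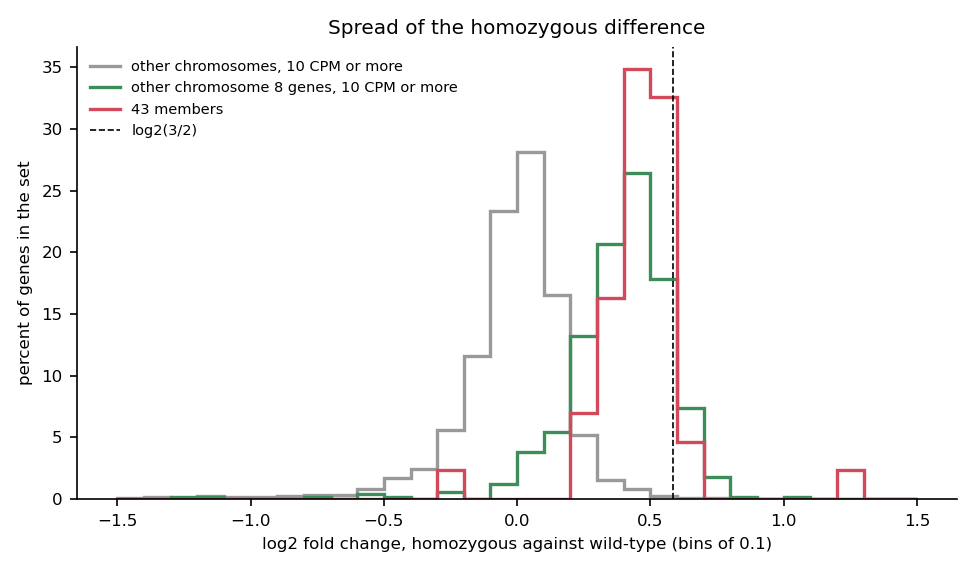
Share of genes in bins of 0.1 of the log2 fold change, homozygous against wild-type, for the 43 members, the 499 other genes of chromosome 8 with at least 10 CPM and 8783 genes of other chromosomes with at least 10 CPM, with values beyond 1.5 placed in the end bins. The members and the other chromosome 8 genes are both displaced from 0, with medians of 0.48 and 0.41, to the left of the dashed line at log2(3/2).

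Among the genes of DNA replication, repair and telomeres, the 7 members ranged from 0.36 to 0.61. The GINS complex is a part of the replicative helicase, and 2 of its subunits are members. *Gins2* was at 48.3 and 50.5 CPM in wild-type libraries, 45.9 and 45.4 with the heterozygous deletion and 71.9 and 67.6 with the homozygous deletion, a homozygous log2 fold change of 0.50 (SE 0.054). *Gins3* was at 17.9 and 19.1, 16 and 16.3, and 26.4 and 26.6 CPM, a log2 fold change of 0.52 (SE 0.073). The homozygous libraries of both genes lay above all others, and their intervals, 0.38 to 0.61 and 0.37 to 0.67, overlap almost fully. Of the exon bases of *Gins2*, 67.3% are shared with *Gse1* on the opposite strand, and the sources do not state whether strand was used in counting.

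*Mcm5*, a subunit of the helicase that GINS binds, was at 583 and 591 CPM in wild-type libraries, 503 and 500 with the heterozygous deletion and 847 and 807 with the homozygous deletion, with a homozygous log2 fold change of 0.49 (SE 0.040). *Orc6*, of the origin recognition complex, had the same value of 0.49 (SE 0.043). These groups of libraries were fully separated in *Mcm5*, with the heterozygous below and the homozygous above wild-type. *Wrn*, the RecQ helicase lost in Werner syndrome, was at 21.3 and 20.2, 20.7 and 20.7, and 33.9 and 29.4 CPM, a log2 fold change of 0.61 (SE 0.077). Its heterozygous libraries lay within the wild-type range. *Terf2*, a telomere-binding shelterin subunit, was at 0.41 (SE 0.054) and *Polb*, the polymerase of base excision repair, at 0.36 (SE 0.066).

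The 11 members of chromatin and transcription had a median of 0.44. The upper end was taken by *Ash2l*, a core subunit of the COMPASS histone H3 lysine 4 methyltransferases, at 305 and 319 CPM in wild-type libraries, 258 and 265 with the heterozygous deletion and 478 and 452 with the homozygous deletion, a log2 fold change of 0.58 (SE 0.043). *Tfdp1*, the dimer partner of the E2F factors, was at 331 and 340, 305 and 308, and 498 and 503 CPM, also 0.58 (SE 0.040). *Hmgb2*, a DNA-bending chromatin protein, was at 543 and 560, 476 and 463, and 845 and 798 CPM, 0.58 (SE 0.042). In each of the 3 genes the genotypes stood in the same order without overlap, the heterozygous lowest and the homozygous highest. *Smarca5*, the ISWI remodelling ATPase, was at 0.54, *Polr2c*, a subunit of RNA polymerase II that shares 18.1% of its exon bases with *Dok4* on the opposite strand, at 0.50, and *Cbfb*, the partner of the Runx factors, *Hmgxb4*, an HMG box protein, and *Asf1b*, a histone chaperone, at 0.44, 0.44 and 0.43.

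*Junb* and *Jund*, the AP-1 subunits that growth and stress signals act on, were lower in this order. *Junb* was at 29.2 and 26 CPM in wild-type libraries, 28.5 and 21.2 with the heterozygous deletion and 37.8 and 33.3 with the homozygous deletion, a homozygous log2 fold change of 0.36 (SE 0.098). *Jund* was at 13.8 and 13.7, 12.6 and 11.4, and 18.6 and 16.8 CPM, 0.36 (SE 0.088). Both genes gave the same value although they lie 14.3 Mb apart on the chromosome, and both intervals (0.15 to 0.56 and 0.18 to 0.55) end below the reference. *Junb* shares 173 exon bases with *Prdx2* on the opposite strand and *Jund* shares 52.6% of its exon bases with an antisense gene that has 0 counts. How reads on shared bases were counted is not stated.

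*Irf2*, an interferon regulatory factor, was the lowest of the 43 and the least expressed. It was at 1.77 and 1.53 CPM in wild-type libraries, 1.05 and 1.39 with the heterozygous deletion and 1.18 and 1.54 with the homozygous deletion, a homozygous log2 fold change of -0.27 (SE 0.25). The homozygous and wild-type libraries overlap, and the interval, -0.80 to 0.26, includes 0 and excludes the reference. Leaving out the first homozygous library gave -0.11 and leaving out the second gave -0.49.

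Of the 5 members in RNA processing and translation, *Aars* was the highest. It encodes the alanyl-tRNA synthetase and was at 482 and 499 CPM in wild-type libraries, 423 and 414 with the heterozygous deletion and 788 and 767 with the homozygous deletion, a log2 fold change of 0.66 (SE 0.040), or 1.58-fold. Its interval, 0.58 to 0.75, includes the reference at its lower end. Of its exon bases 14.3% are shared with *Exosc6* on the same strand, which has 0 counts in these libraries. The sources do not state how reads on shared bases were counted, so the effect of this overlap cannot be told. *Farsa*, a subunit of the phenylalanyl-tRNA synthetase, was at 0.42 (SE 0.044), so the intervals of these synthetase genes do not overlap. *Dhx38*, a helicase of the spliceosome, was at 157 and 154, 143 and 138, and 231 and 230 CPM, 0.57 (SE 0.043), and *Nip7*, a factor of ribosome assembly, was at 0.54 (SE 0.043).

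*Arglu1*, a splicing regulator, was at 192 and 180 CPM in wild-type libraries, 178 and 175 with the heterozygous deletion and 184 and 250 with the homozygous deletion. Only the second homozygous library was high. The log2 fold change of 0.22 (SE 0.084) became -0.02 without it and 0.43 without the first homozygous library. *Ikbkb*, the kinase that activates NF-kappaB, behaved alike, at 34.7 and 31.2, 32.6 and 32.9, and 34.1 and 43.2 CPM. Its log2 fold change of 0.24 (SE 0.085) became 0.05 without the second homozygous library and 0.39 without the first. For both genes the place below the other members rests on the first homozygous library.

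*Calr* encodes calreticulin, the calcium-binding lectin chaperone of the endoplasmic reticulum, and was the most abundant member per length, at 247 ± 2.25 RPKM (CPM per kilobase of exon, SD, n = 2) in wild-type cells. It was at 706 and 716 CPM in wild-type libraries, 681 and 678 with the heterozygous deletion and 824 and 821 with the homozygous deletion, a log2 fold change of 0.21 (SE 0.038), or 1.16-fold. Unlike in *Arglu1* and *Ikbkb*, the low value was the same in both libraries, and leaving out any single library gave 0.20 to 0.23. With library totals it was 0.15. *Farsa*, whose gene begins 0.0101 Mb beyond *Calr*, had an interval of 0.32 to 0.51, above the 0.13 to 0.29 of *Calr*.

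The other members of protein turnover and folding lay between *Calr* and the reference. *Dnajb1* and *Dnaja2* encode HSP40 co-chaperones of HSP70, the former strongly induced by heat shock. *Dnajb1* was at 61.7 CPM in both wild-type libraries, 55.9 and 53.8 with the heterozygous deletion and 81.2 and 73.5 with the homozygous deletion, 0.33 (SE 0.055). *Dnaja2* was at 321 and 345, 298 and 299, and 451 and 434 CPM, 0.41 (SE 0.044). Their intervals, 0.21 to 0.44 and 0.32 to 0.50, overlap. *Psmd7*, a lid subunit of the proteasome, was at 314 and 324, 285 and 286, and 440 and 418 CPM, 0.43 (SE 0.042). *Cul4a*, the scaffold of a ubiquitin ligase, was at 0.48, *Cdc16*, a subunit of the anaphase-promoting complex (APC/C), at 0.50, and *Nae1*, a subunit of the enzyme that activates NEDD8 for cullins, at 0.56.

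To show what stands before the starts of members with unlike values, 250 bases upstream of the transcription start are given. They are shown for *Calr* (0.21), *Aars* (0.66) and *Mcm5*, which at 0.49 lay near the members' median. *Hspa5*, an endoplasmic reticulum chaperone gene on chromosome 2 that fell (-0.23), is added. It was the lowest of the 7 listed chaperone partners off chromosome 8 and was picked after the values were seen. The sequences are from RefSeq on GRCm38.p6, 5′ to 3′ on the strand of the gene, and lie at chr8:84846932-84847181 (minus strand), chr8:111033592-111033841 (plus), chr8:75109259-75109508 (plus) and chr2:34771840-34772089 (plus). Capitals mark, on either strand, the endoplasmic reticulum stress element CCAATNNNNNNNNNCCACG in *Calr* and *Hspa5*, the amino acid response type motif TGATGNAA in *Aars* and the E2F type motif TTTGGCGC in *Mcm5*.
Calr: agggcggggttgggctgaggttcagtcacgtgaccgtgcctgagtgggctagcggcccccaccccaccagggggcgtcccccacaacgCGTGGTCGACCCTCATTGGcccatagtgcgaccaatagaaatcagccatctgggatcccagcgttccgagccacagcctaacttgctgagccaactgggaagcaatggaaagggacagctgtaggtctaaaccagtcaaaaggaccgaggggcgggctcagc
Hspa5: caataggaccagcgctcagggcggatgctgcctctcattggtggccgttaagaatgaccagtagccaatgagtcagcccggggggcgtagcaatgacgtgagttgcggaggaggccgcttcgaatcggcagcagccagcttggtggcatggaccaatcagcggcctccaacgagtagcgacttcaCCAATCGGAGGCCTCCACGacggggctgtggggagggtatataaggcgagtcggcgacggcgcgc
Aars: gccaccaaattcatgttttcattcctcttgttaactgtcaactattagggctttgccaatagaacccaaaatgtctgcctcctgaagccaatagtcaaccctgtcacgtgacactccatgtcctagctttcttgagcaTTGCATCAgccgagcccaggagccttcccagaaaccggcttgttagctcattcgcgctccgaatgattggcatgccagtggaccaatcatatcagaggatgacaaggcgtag
Mcm5: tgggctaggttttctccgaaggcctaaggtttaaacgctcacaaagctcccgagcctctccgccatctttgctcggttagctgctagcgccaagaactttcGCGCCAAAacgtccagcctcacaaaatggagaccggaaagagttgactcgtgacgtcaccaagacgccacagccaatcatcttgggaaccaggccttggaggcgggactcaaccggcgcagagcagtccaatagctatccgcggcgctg

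RefSeq windows of 300 bases (250 before and 50 after the start) were matched for 29 of the 43 members, 35 windows in all. *Zmat4*, *Arglu1* and *Ikbkb* were among the members without a window. The stress element, searched on both strands, stood in 0.119% of all 32851 windows and in 1 of the 35 member windows, that of *Calr*. TGATGNAA stood in 3.97% of all windows and in those of *Aars* and *Irf2*, and TTTGGCGC in 0.514% and in those of *Mcm5* and *Polr2c*. The stress element and TGATGNAA were chosen after the values had been seen. GGGCGG was found in 62.9% of member windows and 35.7% of all, and CCAAT, which is also a part of the stress element, in 48.6% and 37.4%. TATAAA was found in 14.3% and 13.6%, and CACGTG in 14.3% and 7.15%. TGACGTCA and TTTCCCGC each stood in 1 member window and in 1.79% and 1.07% of all windows. The windows of all genes were not matched to the members for expression. A match is a description of the letters and says nothing of a bound factor.

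The 8 members of membrane traffic and nuclear transport ranged from 0.39 to 0.58. *Nup93*, a scaffold of the nuclear pore, was at 283 and 284 CPM in wild-type libraries, 259 and 256 with the heterozygous deletion and 429 and 420 with the homozygous deletion, 0.58 (SE 0.040). *Nutf2*, which carries Ran into the nucleus, was at 0.55 (SE 0.051). *Cog8*, of the Golgi tethering complex COG, was at 40.7 and 40.1, 34.6 and 32.5, and 52.4 and 53.5 CPM, 0.39 (SE 0.057), and 28.2% of its exon bases are shared with *Pdf* on the same strand. *Lamp1*, the lysosomal membrane protein, was at 0.42, *Erlin2*, a protein of the endoplasmic reticulum membrane, at 0.45 and *Ddhd2*, a phospholipase, at 0.39.

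The ESCRT machinery, which buds and cuts membranes, gave another related pair. *Vps4a*, its ATPase, was at 31.8 and 35.7 CPM in wild-type, 30.3 in both heterozygous and 49.4 and 43.4 in homozygous libraries, 0.46 (SE 0.071). *Vps37a*, an ESCRT-I subunit, was at 51.8 and 46.6, 50.5 and 49.8, and 58.2 and 70.7 CPM, 0.39 (SE 0.073). In both genes the homozygous libraries lay above wild-type but far apart from each other. Without the second homozygous library *Vps37a* was at 0.24.

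Of the 4 members in redox defence and signalling, *Gsr*, the glutathione reductase, and *Prdx2*, a peroxiredoxin, were at 0.52 and 0.51, and *Ppp2cb*, a catalytic subunit of the phosphatase PP2A, was at 0.56. The intervals of these 3 include the reference, and that of *Ikbkb* does not.

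*Zmat4* stood apart from all other members. It was at 8.37 and 8.5 CPM in wild-type libraries, 5.59 and 5.07 with the heterozygous deletion and 19.2 and 19.8 with the homozygous deletion, a homozygous log2 fold change of 1.21 (SE 0.090), or 2.31-fold. Its interval, 1.02 to 1.40, lies above the reference, and leaving out any single library gave 1.18 to 1.23. It ranked above 99.1% of the tested genes of chromosome 8. Per length it was low, at 1.02 ± 0.0106 RPKM (SD, n = 2) in wild-type cells, where among the members only *Irf2*, at 0.223 ± 0.0232 RPKM, was lower.

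The members' homozygous medians differed little between parts of the chromosome. With the 890 tested genes of chromosome 8 divided in order into 4 parts, the members' medians were 0.48, 0.47, 0.46 and 0.48, from 15, 6, 14 and 8 members. In the heterozygous deletion the medians of the same parts were -0.08, -0.21, -0.15 and -0.15. Close neighbours could differ, as *Polb* (0.36), *Ikbkb* (0.24) and *Zmat4* (1.21) do between positions 22628126 and 24156585. Across the 43 members the homozygous value had a Pearson correlation of 0.17 with the wild-type level in log2 RPKM, -0.09 with GC content and 0.03 with the log2 exon length. These values are across genes of the same libraries and describe only this list.

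**Figure D4:**
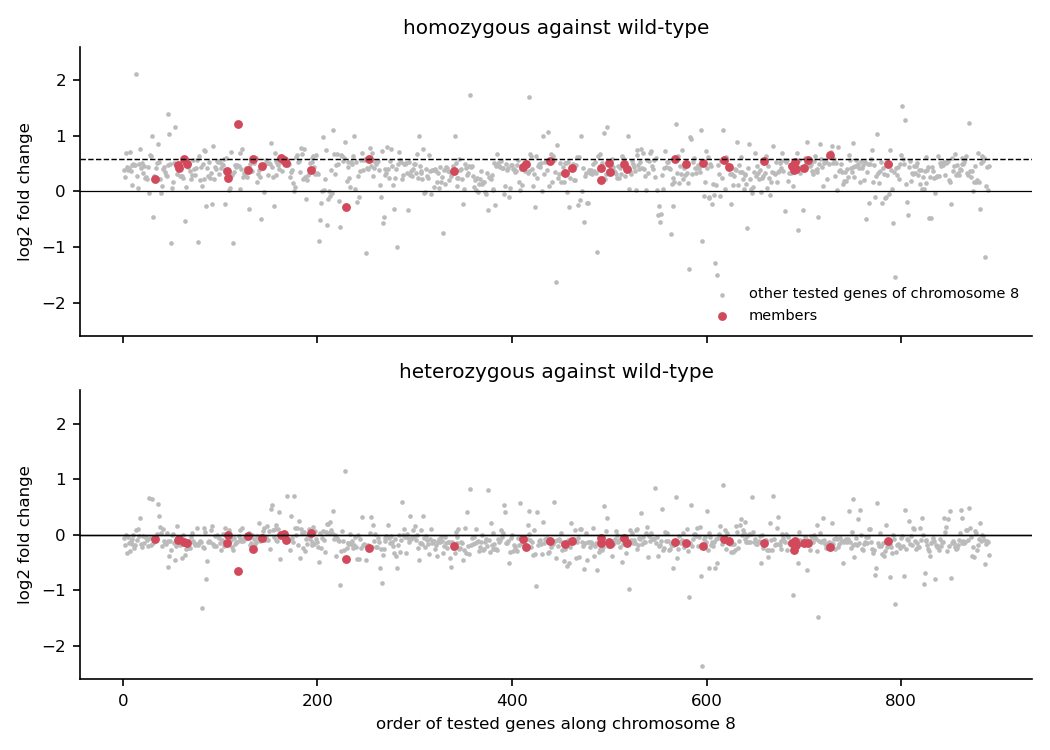
Fitted log2 fold changes of the 890 tested genes of chromosome 8, in their order along the chromosome, for the homozygous (upper) and heterozygous (lower) deletion against wild-type, with members in red. The displacement runs the whole length in both panels, above 0 in the upper panel, where the dashed line is log2(3/2), and slightly below 0 in the lower panel.

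The heterozygous deletion was not the comparison the members were chosen on, although it shares the wild-type libraries with it. Here the members lay slightly below wild-type cells, with a median log2 fold change of -0.14 (0.907-fold), and 41 of 43 were below 0 (39 with library totals). With edgeR's quasi-likelihood test, adjusted over all 16951 genes by the Benjamini-Hochberg method, 10 members were lower and 0 higher at an adjusted p below 0.05. Among all genes 2.91% were lower and 2.23% higher. Unadjusted, 25 members had a p below 0.05, all lower. DESeq2 called 9 lower and 0 higher. Among the 847 other tested genes of chromosome 8, 111 were lower and 4 higher, with a median of -0.12. Many of these are expressed at a low level. Among the 499 of them with at least 10 CPM, 103 were lower and 4 higher, with a median of -0.13. Both heterozygous libraries lay below both wild-type libraries for 36 of 43 members and for 24.0% of all tested genes.

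*Zmat4* again had the largest difference, at -0.66 (SE 0.11, edgeR adjusted p = 0.000827), with both heterozygous libraries below the others. *Cog8* fell by 0.27 on the log2 scale (edgeR adjusted p = 0.00884), *Ash2l* by 0.25 (edgeR adjusted p = 0.000988), and *Mcm5*, *Hmgb2* and *Aars* each fell by 0.23 (edgeR adjusted p = 0.00127, 0.00154 and 0.00132). The 4 others were *Psmd7* and *Dnaja2*, both at -0.16 (edgeR adjusted p = 0.0313 and 0.0412), *Dhx38* at -0.15 (edgeR adjusted p = 0.0482) and *Nup93* at -0.14 (edgeR adjusted p = 0.0478). *Zmat4*, *Ash2l* and *Mcm5* passed the threshold in all 16 settings run, and the other 7 in 9 to 15 of them. Without the second wild-type library 3 members were called, without the first 6, without the second heterozygous library 4, and without either homozygous library 19.

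The calls came from several groups, against 2.91% of all tested genes called lower. They were 1 of 7 members in replication and repair, 2 of 11 in chromatin and transcription and 2 of 5 in RNA processing and translation. Protein turnover had 2 of 7, membrane traffic 2 of 8 and redox and signalling 0 of 4, and *Zmat4* was the last. *Wrn*, *Ppp2cb*, *Vps37a* and *Ikbkb* lay nearest to wild-type, between -0.01 and 0.03 (edgeR adjusted p from 0.923 to 0.994). Of the 10 mESC markers 6 were also lower in the heterozygous deletion, against 2.91% of all tested genes, with a list median of -0.19. The part of these markers in the members' values was not tested. *Zfp42*, among these 10 markers and at -0.31, itself lies on chromosome 8.

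Taken directly, the homozygous libraries stood 0.60 above the heterozygous ones at the median on the log2 scale, and this comparison shares the homozygous libraries with the one used to choose the members. All 43 values were above 0, the smallest being *Irf2* at 0.16. The 95% interval included log2(3/2) for 29 members, lay below it for 5 and above it for 9.

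The partner genes of the members' complexes and families gave a comparison by chromosome. Of 166 partners in 22 lists, 156 lie on other chromosomes and 10 on chromosome 8, and all were tested. Off chromosome 8 the median homozygous value was 0.05, with 36 of 156 partners higher and 7 lower, against 10.9% and 10.5% of all tested genes. The count of higher partners was 13 without the first wild-type library, 22 without the second and 21 without the first homozygous library. With library totals in place of the composition scaling the median was 0.00 and the counts were 17 higher and 19 lower. All 16951 tested genes gave 1183 higher and 2525 lower with that scaling, with a median of -0.06. The balance of directions therefore depends on the scaling. In the heterozygous deletion 2 of the 156 were higher and 1 lower, with a median of -0.01, against 2.23% and 2.91% of all tested genes. Named after their values were seen, the former were *Baz1a* at 0.21 and *Fosl2* at 0.26 and the latter was *Parp1* at -0.16.

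On chromosome 8 all 10 partners were higher in the homozygous deletion, against the 10.9% of all genes, with a median of 0.42. Most expressed genes of the chromosome were higher too. Of the 499 non-member genes of chromosome 8 with at least 10 CPM, 433 were higher, with a median of 0.41. The 10 partners were chosen for their complexes, with the general rise of the chromosome known, and nothing particular to them is read from the count. *Cog4* and *Cog2* of the COG complex were at 0.56 and 0.47 (edgeR adjusted p = 1.74e-08 and 2.19e-06). *Gins4* was at 0.47, next to 0.50 and 0.52 for *Gins2* and *Gins3*, and *E2f4*, an E2F factor, also at 0.47. *Chmp1a* of the ESCRT machinery was at 0.44, *Kars*, the lysyl-tRNA synthetase, at 0.41, *Anapc10* of APC/C at 0.39 and *Mvb12a* of ESCRT-I at 0.33. The shelterin subunits *Acd* and *Terf2ip* were the lowest, at 0.28 and 0.26 (edgeR adjusted p = 0.00625 and 0.0094). Without the second wild-type library both missed the threshold (edgeR adjusted p = 0.0829 and 0.127), and *Terf2ip* also missed it with DESeq2 (adjusted p = 0.0504). In the heterozygous deletion *Cog2* (-0.24, edgeR adjusted p = 0.0158) and *Cog4* (-0.17, edgeR adjusted p = 0.0418) were lower, and with DESeq2 neither was (adjusted p = 0.0574 and 0.102).

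**Figure D5:**
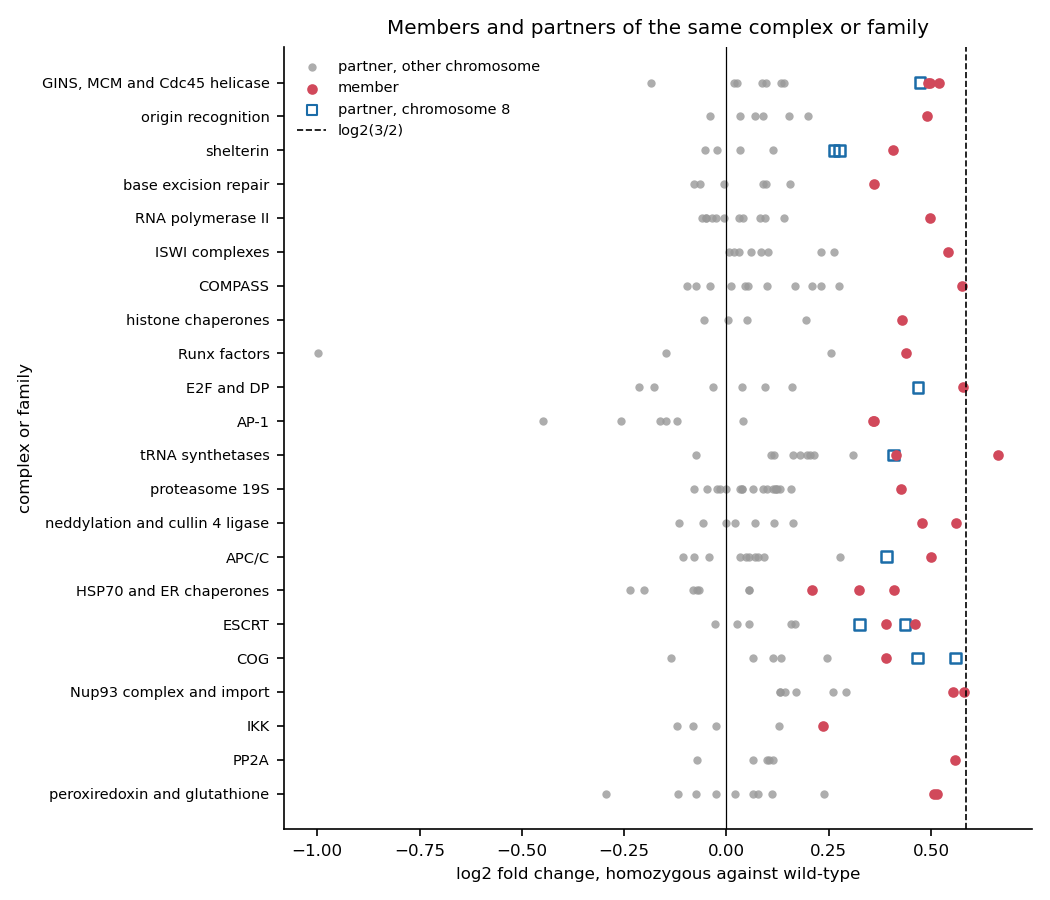
Log2 fold change, homozygous against wild-type, of the members (red), of their partners on other chromosomes (grey) and of partners on chromosome 8 (blue squares), by complex or family. In every row the red points lie to the right of all grey points, and the blue squares lie from 0.26 to 0.56, among or near the red points.

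In 32 members with listed partners, the homozygous value lay above that of every partner off chromosome 8. Since members were picked for their rise, this count is a description. The difference between a member and the median of its partners was 0.43 at the median and ranged from 0.24 for *Farsa* to 0.59 for *Cbfb*. Its SD over the 32 members was 0.087, against 0.101 for their values taken alone.

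The calls among partners off chromosome 8 were spread unevenly over the 22 lists. These partners had a median SE of 0.047, against 0.093 for all tested genes, and a smaller SE makes a call easier. Of 9 tRNA synthetase genes off chromosome 8, 6 were higher and 0 lower, against 10.9% and 10.5% of all tested genes. Their median was 0.18, and with library totals 5 were higher, against 1183 of all 16951 tested genes. *Iars*, the isoleucyl-tRNA synthetase, was at 0.31 (edgeR adjusted p = 7.62e-06), next to 0.66 for *Aars*. All 6 partners of *Nup93* and *Nutf2* off chromosome 8 were higher, at 0.13 to 0.29, against 10.9% of all tested genes. DESeq2 called 4 of these partners, and library totals gave 2. *Nup205* of the inner pore ring was the highest of these at 0.29 (edgeR adjusted p = 1.9e-05).

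In the list of HSP70 and endoplasmic reticulum chaperones the 7 partners off chromosome 8 had a median of -0.07. Of these, 0 were higher and 2 lower, against 10.9% and 10.5% of all tested genes. The 2 were *Hspa5*, the HSP70 of the endoplasmic reticulum, and *Pdia3*, the disulfide isomerase that works with calreticulin, named here after their values were seen. With library totals 5 of the 7 were lower and the list median was -0.13. That scaling also gave 2525 lower among all 16951 tested genes, with a median of -0.06. *Hspa5* was at 731 and 742 CPM in wild-type libraries, 715 and 725 with the heterozygous deletion and 633 and 618 with the homozygous deletion, -0.23 (edgeR adjusted p = 0.000151). *Pdia3* was at 608 and 625, 626 and 638, and 540 and 532 CPM, -0.20 (edgeR adjusted p = 0.000782). *Calr* lay 0.28 above the median of this list, against 0.43 for members in general. The other members set against this list, *Dnaja2* and *Dnajb1*, lay 0.48 and 0.40 above its median.

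Single partners also differed by more than the lists. *Runx2*, a DNA-binding partner of *Cbfb* and a gene of osteoblasts, was at 3.74 and 3.68 CPM in wild-type libraries, 2.81 and 3.01 with the heterozygous deletion and 1.57 and 2.11 with the homozygous deletion, -0.998 (edgeR adjusted p = 0.000576). The fibroblast markers fell in the same libraries by a median of 1.07 on the log2 scale, and their part in the value of *Runx2* was not tested. *Prdx5*, a mitochondrial peroxiredoxin, was at -0.30 (edgeR adjusted p = 0.00218), while *Anapc1*, the scaffold of APC/C, and *Kmt2d*, a COMPASS methyltransferase, were at 0.28 and 0.27 (edgeR adjusted p = 7.73e-05 and 0.00228). Without the second wild-type library *Kmt2d* was at 0.20 and missed the threshold (edgeR adjusted p = 0.067).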

How the data were processed

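The authors deposited whole-number counts of reads per gene, without normalization, for 55385 genes in 6 libraries of stranded, polyadenylated RNA (wild-type, heterozygous and homozygous deletion, 2 libraries each as labeled). The submitters' processing notes name Trimmomatic 0.39, STAR 2.6.1d, SAMtools 1.9, featureCounts 1.6.4 and DESeq2 1.22.2 and the mm10/GRCm38 build, without their settings. Positions, exon lengths and GC content came from the GENCODE annotation of GRCm38, in which 55144 identifiers were found.

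The 16951 genes that reached 10 counts in 2 or more libraries were fitted in a single quasi-likelihood model of 3 genotypes with TMM factors in edgeR 4.0.16 (R 4.3.3), with Benjamini-Hochberg adjustment over all tested genes and 95% intervals from its standard errors. The common biological coefficient of variation was 3.52%. CPM used TMM-scaled totals and RPKM the union of exons. The script was tested on simulated data. DESeq2 1.42.0, other scalings and filters, robust estimation, fits of only the 2 genotypes in question, a block for the replicate number and each library left out were alternatives. The libraries of each genotype differed beyond sampling noise (chi-square per degree of freedom 2.34 to 3.65) and counted as separate samples. Summaries used Python 3.11.15, pandas 2.3.3 and numpy 2.4.6.

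The members, their groups, the partner and marker lists and the alternatives were chosen with earlier results of these data known, and the assignment of members to partner lists was made after values were seen. Values per library are given for the 6 highest and 6 lowest homozygous values, the members called in the heterozygous deletion, 4 related pairs and *Zmat4*. Among partners called off chromosome 8 the 6 largest homozygous changes are named, with every partner on chromosome 8. The symbol *Mars1* was matched through *Mars*.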

Additional observations from a re-analysis of the deposited data

How the results depend on the processing

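The count of members lower in the heterozygous deletion, 10, was 16 without a filter on low counts, 18 with only the 2 genotypes compared and 3 to 19 with a library left out. With the replicate number as a block it was 6. Over all tested genes same-numbered libraries did not deviate together (correlations of 0.026, -0.094 and 0.0087). With 1 difference per genotype, this cannot exclude a batch that same-numbered libraries share in some genes. The members' median moved by less than 0.1 in every setting. In the heterozygous deletion it was -0.15 with DESeq2, with its size factors and without a filter, -0.13 with library totals and -0.14 to -0.11 with a library left out. In the homozygous deletion it was 0.42 with library totals and 0.46 to 0.51 with a library left out, and against the heterozygous deletion 0.53 with totals, 0.61 with TMM factors computed without chromosome 8 and 0.57 to 0.62 with a library left out. The SD across members was 0.17 to 0.23 with a library left out. Intervals below log2(3/2) numbered 15 to 24 with a library left out, with 15 without the second wild-type library. Those including it numbered 11 with totals and 18 to 27 with a library left out. Those above it numbered 2 with TMM factors computed without chromosome 8 and 1 to 2 with a library left out, with 2 without the second homozygous library. Partners off chromosome 8 higher in the homozygous deletion numbered 17 with totals and 13 to 39 with a library left out (13 and 22 without the first and second wild-type library, 21 without the first homozygous library). Those lower numbered 19 with totals, 4 with DESeq2 and 5 to 7 with a library left out. In the heterozygous deletion the partners higher numbered 1 with DESeq2 and 0 to 2 with a library left out, and those lower 4 without a filter, 6 with only the 2 genotypes compared and 0 to 6 with a library left out. In the heterozygous deletion values near 0 that changed sign were *Wrn* (0.00706 with totals, 0.000639 with the block, -0.039 to 0.037 with a library left out) and *Ikbkb* (0.000674 with totals, -0.081 to 0.071 with a library left out). With a library left out *Terf2ip* ran from -0.14 to 0.0064, *Vps37a* from -0.047 to 0.11, *Nup205* from -0.036 to 0.0089, *Anapc1* from -0.026 to 0.055 (and -0.003), *Kmt2d* from -0.026 to 0.14 and *Junb* from -0.38 to 0.039. None of these passed the threshold with a sign that differs from the main fit of all 6 libraries. *Junb*, at -0.16 in the main fit, reached -0.38 without the first heterozygous library. The cause of each change was not tested.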
